A study of Mus musculus with 22 samples.

Results

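The proteins of the mitochondrial ribosome were followed through the RNA of their genes in muscle stem cells of uninjured and injured mouse muscle. The members are the protein-coding genes whose symbol starts with Mrpl or Mrps and goes on with a number. GENCODE M21 lists 78 such genes, and 77 of them were found among the 43430 genes of the deposited files. The other one, Mrpl33, is carried in the files under an older gene identifier (ENSMUSG00000029142), so it stands outside every count of members and is described on its own. The 77 members lie on 17 chromosomes. Of these, 50 encode proteins of the large subunit, 26 encode proteins of the small subunit, and Mrps36 was left in neither because its protein is now known as a component of the 2-oxoglutarate dehydrogenase complex.

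The mitochondrial ribosome translates the mRNAs that mitochondrial DNA encodes, all of which code for subunits of the respiratory chain and the ATP synthase. Its RNA is transcribed inside the mitochondrion, whereas all of its proteins are encoded in the nucleus, made in the cytosol and imported. Muscle stem cells lie quiescent beside the myofibre until injury, when they leave quiescence, enlarge, divide and differentiate, and growth of the mitochondrial compartment is a known part of leaving quiescence.

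The 22 libraries came from ZsGreen-positive cells of the hindlimb muscles of Pax7-zsgreen mice, a line in which the fluorescent reporter follows Pax7, and every group carries this reporter. The sampled states were uninjured muscle (6 libraries), muscle 1 day after cardiotoxin injury (8 libraries) and muscle 3 days after cardiotoxin injury (8 libraries). Each state was split between zeitgeber time 16 (ZT16) and zeitgeber time 4 (ZT4), with 3 libraries for each time in uninjured muscle and 4 for each time at day 1 and at day 3. Zeitgeber time counts hours from lights-on, and the labels do not separate the hour of injury from the hour of collection. The cells were lightly fixed in the animal, and the labels do not say whether libraries of a group are separate animals, so the p-values measure only the spread between these libraries. Library totals ranged from 5965957 to 9751536 estimated counts. All 77 members passed the filter on low counts, which kept 15084 genes; their mean count per library ranged from 268.9 to 1798, with a median of 537.2, and the lowest count of any member in any library was 65.

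The 7 stem cell markers, Pax7, Myf5, Vcam1, Calcr, Itga7, Cdh15 and Myod1, were detected in every group. Their summed level was 3243 to 4027 CPM (counts scaled to library size with trimmed mean of M-values factors) in uninjured libraries, 2835 to 3329 CPM at day 1 and 2792 to 3312 CPM at day 3. Markers of other cells moved with the states: the 10 macrophage and monocyte markers summed to 16.6 to 80.2 CPM in uninjured libraries, 1230 to 3677 CPM at day 1 and 263.5 to 886.4 CPM at day 3, and none of them was at 0 in any state. The 6 fibro-adipogenic markers summed to 2752 to 3770 CPM in uninjured libraries, 474.2 to 811.4 CPM at day 1 and 1475 to 3313 CPM at day 3. The 5 endothelial markers summed to 94.2 to 171.1 CPM, 28.9 to 66.6 CPM and 9.92 to 18.7 CPM in the same order. The 5 mural markers summed to 365.5 to 1194 CPM, 316.9 to 386.0 CPM and 241.7 to 418.9 CPM. The 7 myofibre markers summed to 472.8 to 1206 CPM, 118.4 to 804.9 CPM and 846.8 to 2230 CPM. Neutrophil markers reached 3.59 CPM in uninjured libraries, 306.3 CPM at day 1 and 16.4 CPM at day 3, with Ly6g at 0 in uninjured and day 1 libraries, and the 5 erythroid markers stayed between 0.481 and 37.6 CPM. Single markers did not all follow these sums. At day 1 against uninjured, 1 of the 7 stem cell markers was called higher and 5 lower (edgeR adjusted p under 0.05). Of the 5 endothelial markers, 1 was higher and 1 lower at day 1, and 3 had a positive log2 fold change. At day 3 against uninjured, 4 of the 6 fibro-adipogenic markers were higher and 2 lower. Over all genes, 34.6% were called higher and 40.6% lower at day 1, and 37.9% and 39% at day 3. The part of these other cells in the results below was not tested, and in bulk RNA fewer cells of a type and less RNA per cell cannot be told apart.

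A pair of uninjured ZT16 libraries stood apart. The mean level of 20 early response genes, a list chosen with earlier results known, was 10.23 and 10.06 log2 CPM in uninjured ZT16 replicates 1 and 3. It was 5.94 log2 CPM in replicate 2 and 4.78 to 5.86 log2 CPM in the uninjured ZT4 libraries. Other libraries also differed from their group. On the same 20 genes, day 1 ZT16 replicate 4 was at 6.55 log2 CPM, against 8.25 to 8.75 log2 CPM in the other day 1 libraries. Genes detected ranged from 15875 to 23267, with the highest number in day 3 ZT4 replicate 1. Total counts of called members that rest on uninjured libraries are given with and without uninjured ZT16 replicates 1 and 3. So are the ratios of summed member TPM and the members with the largest differences between ZT16 and ZT4 in uninjured muscle. The other sums and ratios are given with all libraries only.

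RNA of the mitochondrial ribosomal protein genes made up a larger share of the libraries after injury. The summed level of the 77 members was 7296 ± 1030 TPM (a measure that corrects for transcript length and library size; SD, n = 6) in uninjured libraries, 11954 ± 670 TPM (SD, n = 8) at day 1 and 13129.9 ± 395 TPM (SD, n = 8) at day 3. The uninjured libraries spanned 5846 to 8882 TPM, the day 1 libraries 10864.5 to 13165 TPM and the day 3 libraries 12506 to 13664 TPM, so neither injured state overlapped with uninjured muscle and the 2 injured states overlapped with each other. The mean was 1.64 times higher at day 1 and 1.8 times higher at day 3 than in uninjured libraries, and 1.53 and 1.68 times higher without uninjured ZT16 replicates 1 and 3. These sums are descriptions and carry no test. All transcripts of a gene were summed, and in some members little of the TPM was assigned to transcripts annotated as protein-coding. At day 1 that share was 0% in Mrpl32, 3.54% in Mrps26, 11.35% in Mrpl3 and 15.54% in Mrpl15. It was 92.86% in Mrpl12 and 99.86% in Mrps22. In Mrps25 the share was 36.85% in uninjured libraries, 12.84% at day 1 and 11.98% at day 3, so its summed value need not follow its coding transcripts.

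**Figure D1:**
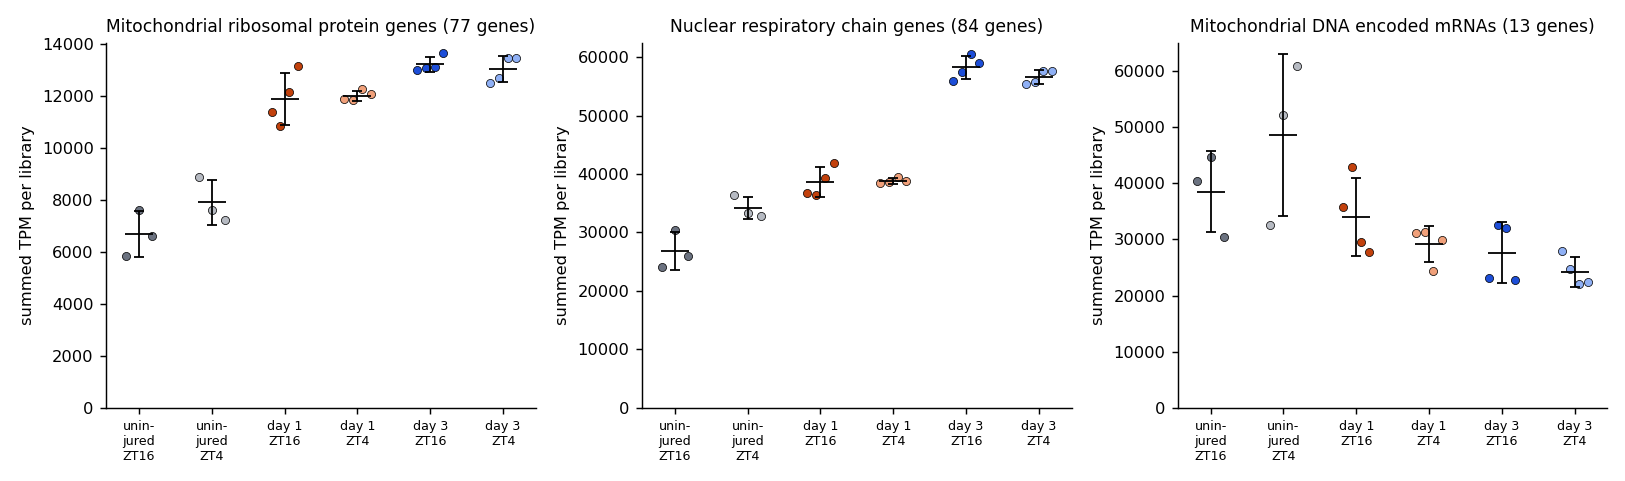
Summed TPM per library (vertical axes, starting at 0) for the 77 mitochondrial ribosomal protein genes, 84 nuclear respiratory chain genes and 13 mRNAs encoded by mitochondrial DNA. Points are libraries, horizontal bars and whiskers are the mean and SD of each group; the ribosomal protein sum lies between 10864.5 and 13664 TPM in all injured libraries and at or below 8882 TPM in all uninjured libraries.

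Levels per transcript length differed widely among members. Averaged over all libraries, the 6 highest were Mrpl42 at 463.7 TPM, Mrps21 at 448.2 TPM, Mrpl17 at 390.5 TPM, Mrpl30 at 302.1 TPM, Mrpl12 at 292.2 TPM and Mrpl20 at 285.0 TPM. The 4 lowest were Mrpl11 at 24.6 TPM, Mrpl57 at 26.6 TPM, Mrpl1 at 27.7 TPM and Mrpl35 at 29.5 TPM. The large subunit carried 1.74 ± 0.093 times the summed TPM of the small subunit in uninjured libraries (SD, n = 6), 1.962 ± 0.024 times at day 1 and 1.94 ± 0.017 times at day 3 (SD, n = 8 each). The lowest ratio of an injured library was 1.92, against a highest ratio of 1.87 in uninjured libraries.

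At 1 day after injury, 67 of the 77 members were higher than in uninjured cells, 2 were lower and 8 did not pass the test (edgeR quasi-likelihood test, Benjamini-Hochberg adjusted p under 0.05 over all 15084 genes). Over all genes tested, 34.6% were called higher and 40.6% lower, 75.2% in all. The median log2 fold change of the members was 0.76, against -0.13 over all genes, and 26 members at least doubled. In 48 members every day 1 library lay above every uninjured library, which held for 21.5% of all genes. Without uninjured ZT16 replicates 1 and 3, 68 members were higher and 1 was lower, with a median of 0.82 against 0.00 over all genes.

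Mrps22, a protein of the small subunit with no bacterial counterpart, changed most. Its level had a lowest, median and highest value of 44.9, 54.5 and 67.2 CPM at day 1, against 10.2, 11.8 and 19.3 CPM in uninjured libraries. The log2 fold change was 2.08 ± 0.13 (SE; edgeR adjusted p = 2.26e-13), and every day 1 library lay above every uninjured library. Mrps6, a small subunit protein of bacterial descent, had 67.7, 78.2 and 100.7 CPM at day 1, against 16.9, 19.7 and 20.3 CPM in uninjured libraries, a log2 fold change of 2.03 ± 0.10 (SE; edgeR adjusted p = 8.33e-15). Mrpl12, the protein of the large subunit's stalk that is also known to bind the mitochondrial RNA polymerase, had 237.6, 308.7 and 364.8 CPM at day 1, against 58.2, 78.5 and 95.4 CPM in uninjured libraries. Its log2 fold change was 1.99 ± 0.09 (SE; edgeR adjusted p = 4.87e-16), the smallest adjusted p of any member.

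Large subunit proteins filled most of the next ranks. Mrpl15 rose by 1.54 ± 0.11, Mrpl46 by 1.52 ± 0.12, Mrpl16 by 1.51 ± 0.10 and Mrpl3, which lies close to the peptidyl transferase centre, by 1.505 ± 0.08 (log2 fold change ± SE; the largest edgeR adjusted p among these 4 was 5.21e-11). Day 1 and uninjured libraries did not overlap for any of these 4: Mrpl46, for example, had at least 44.7 CPM at day 1, against at most 29.6 CPM in uninjured libraries. By subunit, 43 of 50 large subunit members were higher and 2 lower, with a median log2 fold change of 0.85, and 23 of 26 small subunit members were higher and 0 lower, with a median of 0.63. Of members with a bacterial counterpart 38 of 45 were higher, with a median of 0.84, and of members found only in mitochondrial ribosomes 28 of 31 were, with a median of 0.73. Differences between these classes were not tested.

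The other 2 called members went the other way. Mrpl23, a large subunit protein at the exit of the peptide tunnel, had 57.9, 62.9 and 73.3 CPM at day 1, against 53.5, 78.6 and 106.2 CPM in uninjured libraries (lowest, median and highest). Its log2 fold change was -0.27 ± 0.08 (SE; edgeR adjusted p = 0.00429), and the groups overlapped, the uninjured libraries being split by time of day. Among the ZT16 libraries alone the value was 0.07 (edgeR adjusted p = 0.621), and without uninjured ZT16 replicate 2 it was -0.10 (edgeR adjusted p = 0.264). An annotated pseudogene, Mrpl23-ps1, is identical to the main Mrpl23 transcript over 499 bases and held 29.6% of the reads of the pair, so the split between them is uncertain. Mrpl48, a large subunit protein found only in mitochondria, had 74.9, 87.0 and 97.9 CPM at day 1, against 83.8, 100.3 and 122.3 CPM in uninjured libraries, a log2 fold change of -0.22 ± 0.07 (SE; edgeR adjusted p = 0.00824). With offsets for the effective transcript length the value of Mrpl48 was 0.15 (edgeR adjusted p = 0.0963), and without uninjured ZT16 replicates 1 and 3 it was -0.11 (edgeR adjusted p = 0.33).

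The 8 members that did not pass the test had small values. Mrpl24, a large subunit protein near the tunnel exit, had a log2 fold change of -0.16 ± 0.08, Mrps21 one of -0.10 ± 0.09, Mrpl27, which reaches towards the peptidyl transferase centre, one of 0.05 ± 0.10, Mrpl14 one of 0.13 ± 0.10 and Mrpl44 one of 0.25 ± 0.13 (SE). The smallest edgeR adjusted p of these 5 was 0.0763. The other 3 were Mrpl4, Mrps14 and Mrps33. The exons of Mrpl24 share 26.3% of their bases with Rrnad1 on the opposite strand, and the library kit does not mark strand. Rrnad1 was at -0.92 (edgeR adjusted p = 1.91e-08), and its part in the Mrpl24 value was not tested.

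**Figure D2:**
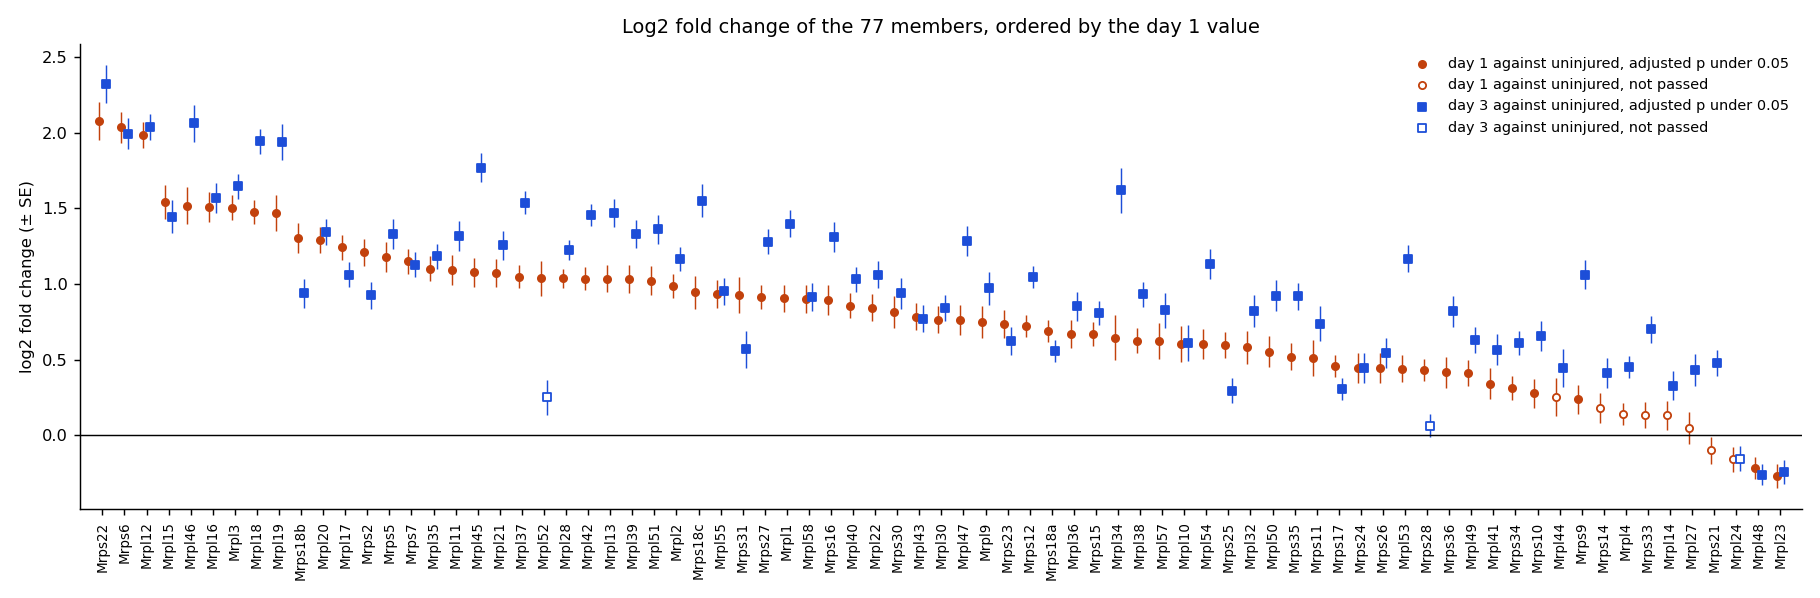
Log2 fold change with SE (vertical axis) of each of the 77 members (horizontal axis, ordered by the day 1 value) for day 1 against uninjured (circles) and day 3 against uninjured (squares). Filled symbols passed an edgeR adjusted p of 0.05 and open symbols did not; values run from -0.27 to 2.08 at day 1 and from -0.26 to 2.32 at day 3.

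Other members known for a particular role followed the majority at day 1. Mrps12, which sits at the decoding centre, had 80.7, 95.1 and 106.5 CPM at day 1, against 51.6, 55.7 and 63.6 CPM in uninjured libraries, with a log2 fold change of 0.72 ± 0.07 (SE; edgeR adjusted p = 2.55e-09). Mrps16 rose by 0.89 ± 0.10, Mrpl45, which holds the ribosome at the inner membrane, by 1.08 ± 0.10, and Mrpl58, a peptidyl-tRNA hydrolase built into the large subunit, by 0.90 ± 0.09 (log2 fold change ± SE; largest edgeR adjusted p 1.44e-08). Mrps30, which carries a small subunit name but belongs to the large subunit, rose by 0.81 ± 0.10 (edgeR adjusted p = 1.39e-07). The 3 relatives Mrps18a, Mrps18b and Mrps18c, of which the first sits in the large subunit, rose by 0.69 ± 0.07, 1.302 ± 0.10 and 0.95 ± 0.11 (largest edgeR adjusted p 2.93e-08). Mrps36 rose by 0.42 ± 0.10 (edgeR adjusted p = 0.000758). Mrpl33, outside the counts, averaged 179.1 ± 17.1 CPM at day 1 and 123.4 ± 33.6 CPM in uninjured libraries (SD, n = 8 and 6), a log2 fold change of 0.58 ± 0.08 (SE; edgeR adjusted p = 6.56e-07).

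At 3 days after injury, 72 members were higher than in uninjured cells, 2 were lower and 3 did not pass the test, while 37.9% of all genes were called higher and 39% lower, 76.9% in all (edgeR adjusted p under 0.05). The median of the members was 0.94 on the log2 scale, against -0.03 over all genes, and 63 members had every day 3 library above every uninjured library, which held for 24.6% of all genes. Without uninjured ZT16 replicates 1 and 3 the counts were 71 and 1, with a median of 0.97. The median over all genes in that same fit was 0.10. The uninjured libraries are the same as in the day 1 comparison, so the 2 results are not independent.

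Mrps22 again led, with 56.8, 67.0 and 73.0 CPM at day 3 (lowest, median and highest), against 10.2, 11.8 and 19.3 CPM in uninjured libraries, and a log2 fold change of 2.32 ± 0.13 (SE; edgeR adjusted p = 1.85e-14). Mrpl46 followed at 2.06 ± 0.12, Mrpl12 at 2.04 ± 0.09, Mrps6 at 1.99 ± 0.10, and Mrpl18 and Mrpl19 at 1.94 ± 0.08 and 1.94 ± 0.12 (largest edgeR adjusted p 1.58e-13). All 6 were clear of the uninjured range. Mrpl23 stayed lower at -0.24 ± 0.08 (edgeR adjusted p = 0.00815) and Mrpl48 at -0.26 ± 0.07 (edgeR adjusted p = 0.00205), but neither direction was stable. Mrpl23 was at 0.22 among ZT16 libraries alone (edgeR adjusted p = 0.0912), and Mrpl48 was called higher, at 0.22, with effective length offsets (edgeR adjusted p = 0.0165). The 3 members that did not pass were Mrpl24 at -0.15 ± 0.08, Mrps28 at 0.06 ± 0.07 and Mrpl52 at 0.25 ± 0.12, and the lowest member that was called higher was Mrps25 at 0.30 ± 0.08 (SE; edgeR adjusted p = 0.00305). The call of Mrps25 is for all its transcripts together, of which coding ones held 36.85% of the TPM in uninjured libraries and 11.98% at day 3. Mrpl52 and Mrps28 went opposite ways by time of day: among ZT4 libraries alone both were called lower, at -0.47 and -0.31 (edgeR adjusted p = 0.012 and 0.0112). Among ZT16 libraries alone both were called higher, at 0.97 and 0.44 (edgeR adjusted p = 1.7e-05 and 0.000841). At day 3 Mrpl3 was at 1.64 ± 0.08, Mrpl45 at 1.77 ± 0.10, Mrps18c at 1.55 ± 0.11, Mrps16 at 1.31 ± 0.10 and Mrps12 at 1.05 ± 0.07. Mrpl58 was at 0.91 ± 0.09, Mrps36 at 0.82 ± 0.10 and Mrpl44 at 0.45 ± 0.13, and all 8 passed the test.

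Between day 1 and day 3 the members moved further, though less and not all in one direction. At day 3, 39 members were higher than at day 1, 7 were lower and 31 did not pass the test (edgeR adjusted p under 0.05), against 26.7% of all genes called higher and 28.7% lower, 55.3% in all. The median was 0.20 on the log2 scale, against -0.02 over all genes, and 17 members had every day 3 library above every day 1 library, which held for 13.7% of all genes. In the fit without uninjured ZT16 replicates 1 and 3 the median was 0.14, against -0.04 over all genes. There 54 members had a positive value and 23 a negative one, against 62 and 15 in the fit of all libraries. Across the 3 comparisons of states, 34 members were higher at day 1 and higher again at day 3 (8.43% of all genes), 26 were higher in both injured states with no call between them (12.2%), 5 were called higher at day 3 against either earlier state but not at day 1 (5.64%), and 5 were higher in both injured states but lower at day 3 than at day 1 (8.32%).

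Mrpl34, a large subunit protein, showed the largest further increase, with 51.4, 59.7 and 81.5 CPM at day 3, against 25.8, 30.7 and 44.9 CPM at day 1 (lowest, median and highest). Its log2 fold change was 0.97 ± 0.13 (SE; edgeR adjusted p = 8.73e-07), and the 2 states did not overlap. Mrps9, a small subunit protein, had 56.5, 65.0 and 76.1 CPM at day 3, against 27.3, 38.5 and 39.9 CPM at day 1, a log2 fold change of 0.82 ± 0.09 (SE; edgeR adjusted p = 1.71e-08). Mrpl53 rose by 0.73 ± 0.08, Mrpl45 by 0.69 ± 0.08, Mrps18c by 0.60 ± 0.10 and Mrps21 by 0.58 ± 0.08 (largest edgeR adjusted p 9.73e-06). The exons of Mrpl53 share 88.0% of their bases with an overlapping gene on the same strand, Gm42688, so its reads are uncertain.

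Mrpl52, a large subunit protein found only in mitochondria, fell most. It had 31.4, 36.4 and 48.1 CPM at day 3, against 52.0, 62.5 and 85.9 CPM at day 1, a log2 fold change of -0.79 ± 0.10 (SE; edgeR adjusted p = 6.34e-07). It was the only member whose day 3 libraries all lay below its day 1 libraries. Mrps28 was lower by a log2 fold change of -0.37 ± 0.07, Mrps18b by -0.36 ± 0.09, Mrps31 by -0.36 ± 0.11, Mrps25 by -0.30 ± 0.08, Mrps2 by -0.28 ± 0.08 and Mrpl17 by -0.18 ± 0.07 (SE; largest edgeR adjusted p 0.0403). The call of Mrpl17 was lost in 13 of the alternatives, 10 of which left out 1 library. Of these 7, 5 encode small subunit proteins. The exons of Mrps25 share 69.8% of their bases with Nr2c2 on the opposite strand, and the library kit does not mark strand. Within ZT16 libraries alone 35 members were called higher and 1 lower at day 3 than at day 1. Within ZT4 libraries alone 24 were called higher and 7 lower. The member medians were 0.29 at ZT16 and 0.12 at ZT4, against -0.026 and -0.005 over all genes. The share of all genes called within a single time of day is not given, so these counts have none beside them.

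**Figure D3:**
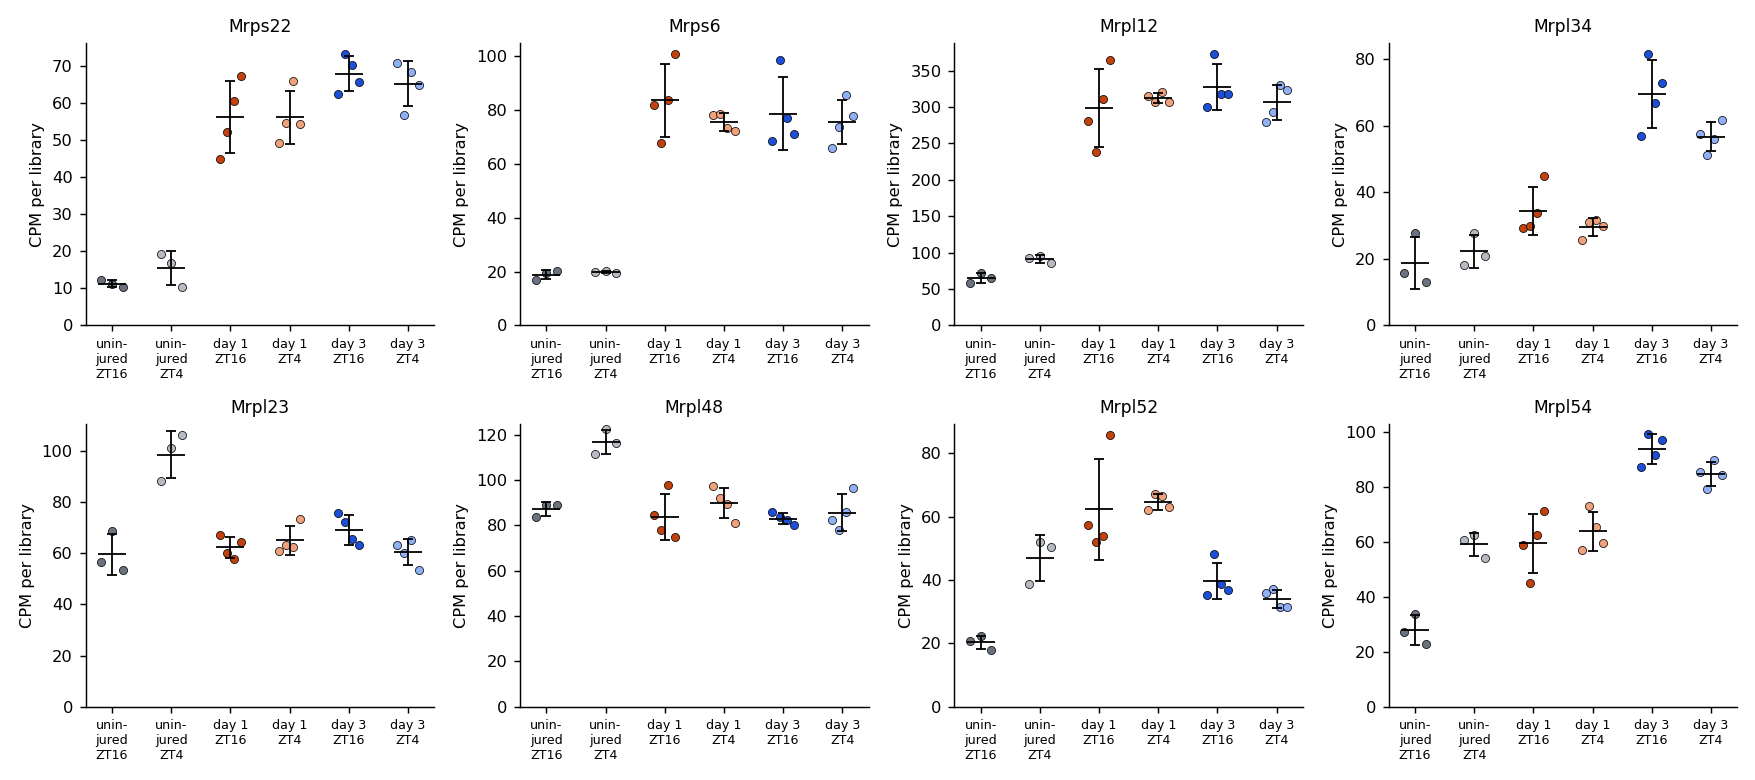
CPM per library (vertical axes, starting at 0) of 8 members by state and zeitgeber time; points are libraries, bars and whiskers are the mean and SD of each group. Mrps22, Mrps6 and Mrpl12 are higher in all 16 injured libraries, Mrpl34 separates day 3 from day 1, and Mrpl23, Mrpl48, Mrpl52 and Mrpl54 differ between ZT16 and ZT4 in uninjured libraries.

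Within uninjured muscle some members were lower at ZT16 than at ZT4, and how many depended on the fit. Of the 77, 72 had a negative log2 fold change, 33 passed the test as lower and 0 as higher (edgeR adjusted p under 0.05), against 9.12% of all genes called lower and 8.53% higher, 17.6% in all. The median was -0.35, against 0.00 over all genes, and in 36 members every ZT16 library lay below every ZT4 library, which held for 12.9% of all genes. With all libraries kept, 18 members were called lower with limma voom. With edgeR and the uninjured groups fitted alone, 5 were (Mrpl23, Mrpl52, Mrpl54, Mrpl58 and Mrps28). The member medians in these fits were -0.38 and -0.37, against 0.02 and -0.01 over all genes. The shares of all genes called belong to the fit with 33 calls, and none is given for any other fit here. With ZT16 replicates 1 and 3 left out, 1 ZT16 library remained, which the fit assumes to vary like the libraries of the other groups. Then 62 members had a negative value with a median of -0.23, and 5 were called lower: Mrpl52, Mrpl54, Mrpl58, Mrps27 and Mrps28. Without ZT16 replicate 1 alone 17 members were called lower. Early response genes stood high in the same 2 libraries, and the 5 mural markers summed to 365.5 to 636.3 CPM at ZT16, against 771.2 to 1194 CPM at ZT4; their part in the difference was not tested.

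The 3 large subunit proteins Mrpl52, Mrpl54 and Mrpl58 differed most. Mrpl52 had 20.6, 22.3 and 18.02 CPM in the ZT16 libraries, against 38.7, 52.0 and 50.3 CPM in the ZT4 libraries, a log2 fold change of -1.21 ± 0.18 (SE; edgeR adjusted p = 6.53e-05). Mrpl54 had 27.2, 33.6 and 22.7 CPM at ZT16, against 60.5, 62.4 and 54.2 CPM at ZT4, a log2 fold change of -1.08 ± 0.15 (SE; edgeR adjusted p = 3.70e-05). Mrpl58 had 28.4, 36.6 and 30.4 CPM at ZT16, against 55.6, 53.3 and 73.1 CPM at ZT4, a log2 fold change of -0.93 ± 0.14 (SE; edgeR adjusted p = 9.70e-05). For all 3 the ZT16 library with low early response genes, replicate 2, had the highest ZT16 value and still lay below every ZT4 library. Mrpl23 and Mrps28 followed at -0.73 ± 0.12 and -0.65 ± 0.11 (SE; edgeR adjusted p = 0.00023 and 0.000334). Leaving out replicates 1 and 3, so that replicate 2 alone stood for ZT16 and the spread came from the other groups, the log2 fold change was -1.097 for Mrpl52, -0.84 for Mrpl54, -0.75 for Mrpl58 and -0.59 for Mrps28, with edgeR adjusted p between 0.0214 and 0.0442, and -0.54 for Mrpl23 (edgeR adjusted p = 0.0828). Mrpl33 showed the same direction at -0.69 ± 0.12 (edgeR adjusted p = 0.000378).

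After injury no member passed the test between ZT16 and ZT4. At day 1, 0 members were called by edgeR, DESeq2 or limma voom, 0 had an unadjusted p under 0.05, the median was -0.04 and the smallest adjusted p was 0.893; 0 of all genes (0%) were called. In 1 member, Mrps15, every ZT16 library lay below every ZT4 library, which held for 2.25% of all genes. Mrpl37, with the smallest p, was at -0.17 ± 0.10 on the log2 scale, and Mrps28, Mrpl39, Mrps15 and Mrpl1 were at -0.17 ± 0.10, 0.20 ± 0.12, -0.16 ± 0.10 and -0.16 ± 0.11. At day 3, 0 members were again called by the same 3 tools, 6 had an unadjusted p under 0.05 and the smallest adjusted p was 0.733, with 0% of all genes called. Every ZT16 library lay above every ZT4 library in 6 members (3.06% of all genes) and below in 0 (3.04% of all genes). At day 3, 70 members had a positive value, with a median of 0.11, and Mrpl22, Mrpl30, Mrpl20, Mrpl55 and Mrpl32 were at 0.26 ± 0.11, 0.26 ± 0.11, 0.25 ± 0.11, 0.26 ± 0.11 and 0.28 ± 0.13.

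The difference between the states in their ZT16 to ZT4 contrast was itself tested. At day 1 it was more positive than in uninjured muscle for 12 members and more negative for 0, against 3.93% and 3.52% of all genes, 7.45% in all (edgeR adjusted p under 0.05). At day 3 it was more positive for 29 members and more negative for 0, against 6.8% and 5.98% of all genes, 12.8% in all. Mrpl52 had a difference of 1.15 ± 0.23 at day 1 (SE; edgeR adjusted p = 0.00398) and 1.44 ± 0.23 at day 3 (edgeR adjusted p = 0.00031). Mrpl54 had one of 0.98 ± 0.20 and 1.23 ± 0.19 (edgeR adjusted p = 0.00426 and 0.000273). Mrpl58 had one of 0.89 ± 0.18 and 1.10 ± 0.18 (edgeR adjusted p = 0.00551 and 0.000381). Mrpl23 had 0.67 ± 0.16 and 0.92 ± 0.16 (edgeR adjusted p = 0.0132 and 0.000556), Mrpl21 had 0.64 ± 0.18 at day 1 (edgeR adjusted p = 0.036, a call lost in 10 of the alternatives) and Mrps28 had 0.75 ± 0.15 at day 3 (edgeR adjusted p = 0.0017). The 12 calls at day 1 became 4 with the groups fitted alone, 4 with limma voom and 7 with no filter on low counts. Leaving out 1 library moved them to 28 without uninjured ZT16 replicate 2, 4 without its replicate 1 and 5 without its replicate 3, 7, 5 and 7 without day 1 ZT4 replicates 1, 2 and 4, and 5 and 4 without day 1 ZT16 replicates 3 and 4. The 29 calls at day 3 became 19 without uninjured ZT16 replicate 1. Without uninjured ZT16 replicates 1 and 3, which leaves 1 library there and takes the spread from the other groups, edgeR called 0 members at day 1 (9 at an unadjusted p under 0.05) and 5 at day 3, namely Mrpl23, Mrpl52, Mrpl54, Mrpl58 and Mrps28.

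**Figure D4:**
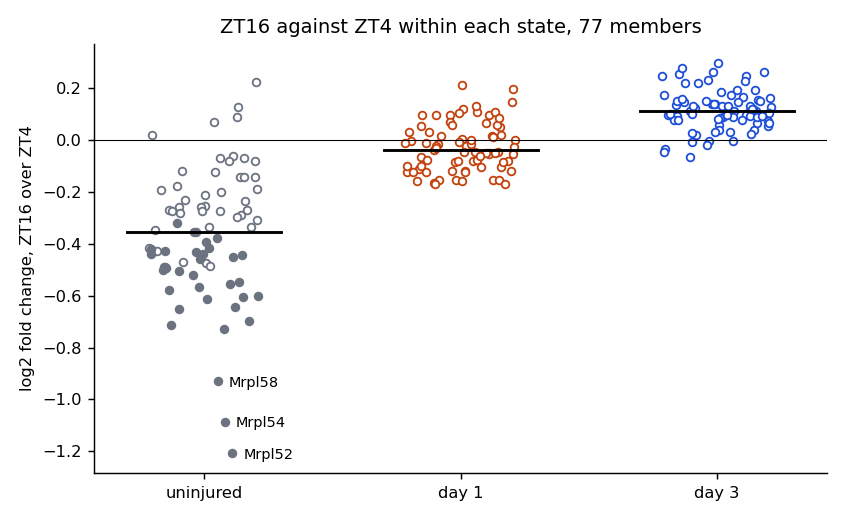
Log2 fold change of ZT16 over ZT4 (vertical axis) for each of the 77 members in uninjured, day 1 and day 3 libraries. Filled points passed an edgeR adjusted p of 0.05, open points did not, and bars are medians, at -0.35, -0.04 and 0.11.

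The members were set beside other genes of mitochondrial gene expression, with lists chosen with earlier results known. The day 1 counts of each list stand beside 34.6% of all genes called higher and 40.6% lower. At day 1 all 5 mitochondrial ribosome proteins that carry other symbols were higher than in uninjured cells, with a median log2 fold change of 0.74; Ptcd3 was at 1.03 ± 0.08, Dap3 at 0.97 ± 0.08 and Chchd1 at 0.74 ± 0.09 (SE; largest edgeR adjusted p 4.52e-08). Of 26 assembly factors 15 were higher and 6 lower, with a median of 0.40, so this group was mixed. C1qbp, a matrix protein, rose by 1.84 ± 0.07 (edgeR adjusted p = 6.39e-17), Rcc1l by 1.11 ± 0.09 (edgeR adjusted p = 1.03e-10) and Fastkd2 by 1.03 ± 0.10 (edgeR adjusted p = 5.52e-10), whereas Mettl17 had a log2 fold change of -1.09 ± 0.10 (edgeR adjusted p = 8.60e-10). Of 15 translation factors 6 were higher and 4 lower; the elongation factors Tufm, Tsfm and Gfm1 were at 1.52 ± 0.07, 1.76 ± 0.11 and 1.69 ± 0.13 (largest edgeR adjusted p 1.50e-11), and the initiation factors Mtif2 and Mtif3 at -0.25 ± 0.11 and -0.41 ± 0.11 (edgeR adjusted p = 0.04 and 0.00127).

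Of 17 mitochondrial aminoacyl-tRNA synthetases, which charge tRNAs, 11 were higher and 3 lower at day 1. Yars2 and Mars2 rose by 1.54 ± 0.08 and 1.44 ± 0.12 (largest edgeR adjusted p 1.49e-10), and Lars2 had a log2 fold change of -1.78 ± 0.19 (edgeR adjusted p = 1.01e-07). Of 9 genes of mitochondrial DNA transcription and upkeep, 5 were higher and 1 lower, among them Lonp1 at 0.84 ± 0.08, Tfam, which packages mitochondrial DNA and starts its transcription, at 0.91 ± 0.09, and Polg2, a subunit of the mitochondrial DNA polymerase, at -1.34 ± 0.17 (largest edgeR adjusted p 1.31e-07). Of 8 regulators of mitochondrial genes, 3 were higher and 1 lower (5 and 1 without uninjured ZT16 replicates 1 and 3): Pprc1 at 1.23 ± 0.11, Ppargc1a at -2.39 ± 0.33 and Myc at 0.75 ± 0.18 all passed (largest edgeR adjusted p 0.00108), while Nrf1 at 0.19 ± 0.09 and Gabpa at -0.02 ± 0.10 did not (edgeR adjusted p = 0.0557 and 0.888).

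Most mRNAs that the mitochondrial ribosome translates had a negative log2 fold change after injury, with 2 of 13 positive at day 1 and 0 at day 3. Of the 13 mRNAs encoded by mitochondrial DNA, 0 were higher and 8 lower at day 1, with a median log2 fold change of -0.64, and 0 were higher and 10 lower at day 3, with a median of -0.93. Over all genes, 34.6% were called higher and 40.6% lower at day 1, and 37.9% and 39% at day 3. With the compared groups fitted alone, 6 of 13 were lower at day 1 and 8 of 12 at day 3. Without uninjured ZT16 replicates 1 and 3, 5 were lower at day 1 and 8 at day 3. mt-Cytb, which encodes cytochrome b, averaged 2039 ± 256 CPM at day 1 and 3481 ± 891 CPM in uninjured libraries (SD, n = 8 and 6), a log2 fold change of -0.76 ± 0.12 (SE; edgeR adjusted p = 3.11e-06). mt-Co1 and mt-Nd4 were at -0.77 ± 0.16 and -1.01 ± 0.20 (edgeR adjusted p = 0.00033 and 0.000176). Both mitochondrial rRNAs, mt-Rnr1 and mt-Rnr2, were lower at day 1, at -1.09 ± 0.27 and -0.59 ± 0.26 (edgeR adjusted p = 0.00158 and 0.0463). Without that pair 1 of them was called. The 13 mRNAs summed to 24438 to 42959.9 TPM in day 1 libraries, against 30480.5 to 60871 TPM in uninjured libraries, so the groups overlapped.

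Nuclear genes of the respiratory chain and of the cytosolic ribosome are given beside the members, with no test of a difference between lists. Over all genes, 34.6% were called higher and 40.6% lower at day 1, and 26.7% and 28.7% at day 3 against day 1. In uninjured muscle 9.12% of all genes were called lower at ZT16. At day 1, 49 of 81 nuclear respiratory chain genes were higher and 17 lower, with a median of 0.27. At day 3 against day 1, 74 were higher and 0 lower, with a median of 0.64, where the members had 39 higher, 7 lower and a median of 0.20. Cytosolic ribosomal protein genes were mostly higher at day 1, with 61 of 80 higher, 5 lower and a median of 0.50, and at day 3 against day 1 they had 5 higher, 31 lower and a median of -0.15. For every 100 TPM of cytosolic ribosomal protein mRNA there were 8.25 ± 1.61 TPM of the members in uninjured libraries (SD, n = 6), 10.37 ± 0.31 TPM at day 1 and 13.44 ± 1.16 TPM at day 3 (SD, n = 8 each). In uninjured muscle at ZT16 against ZT4, 76 of 80 cytosolic ribosomal protein genes and 63 of 81 nuclear respiratory chain genes were called lower, with medians of -0.91 and -0.46, against 33 of 77 members with a median of -0.35. Without uninjured ZT16 replicates 1 and 3 the ZT16 calls were 11 of 80, 8 of 81 and 5 of 77, with medians of -0.77, -0.34 and -0.23. With the uninjured groups fitted alone they were 51, 19 and 5.

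**Figure D5:**
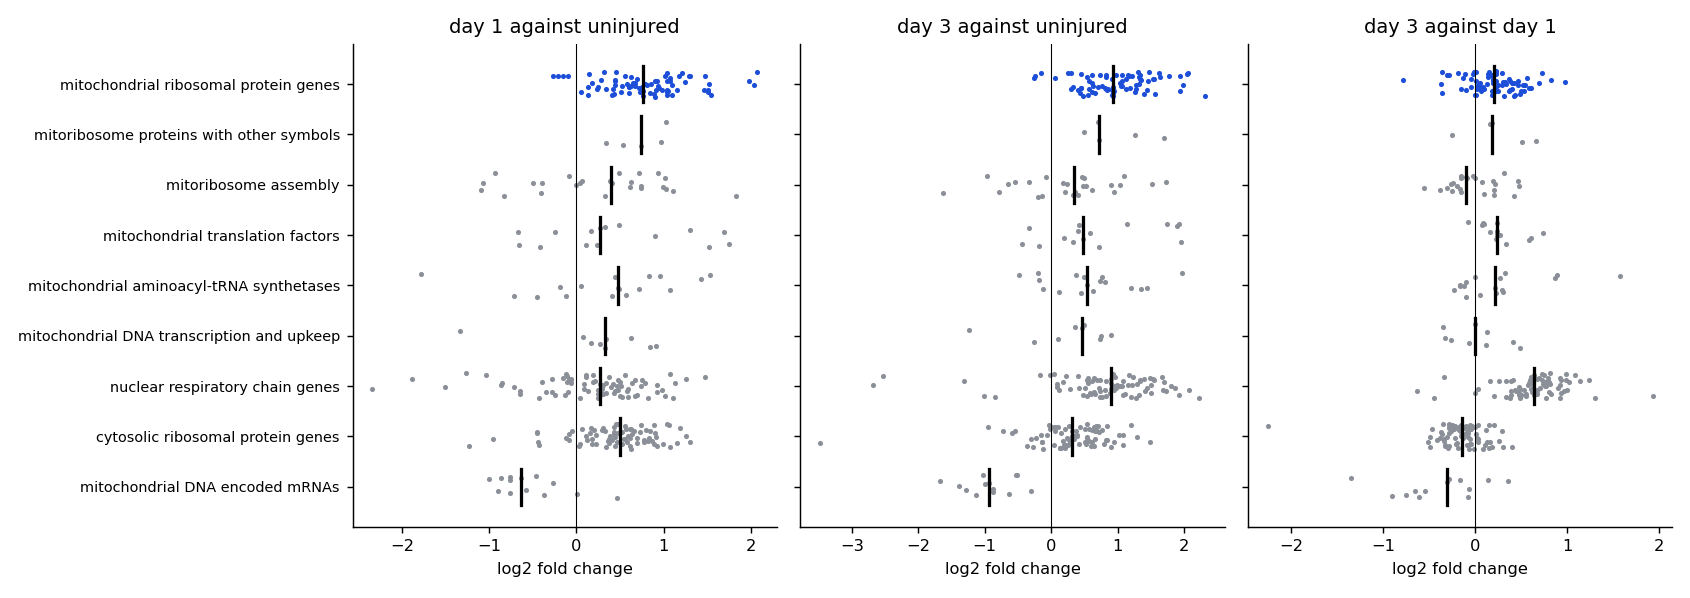
Log2 fold change (horizontal axes) of each gene in 9 lists for day 1 against uninjured, day 3 against uninjured and day 3 against day 1; points are genes and bars are list medians. The 77 members (top, blue) have medians of 0.76, 0.94 and 0.20, and the mRNAs encoded by mitochondrial DNA (bottom) have medians of -0.64, -0.93 and -0.31.

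Most members varied together over all libraries, less so within the injured ones. The correlation of each member with the mean of the others over the 22 libraries had a median of 0.92, and 62 members were above 0.8, a description in which all points share the same states and library depths. Over the 16 injured libraries alone the median was 0.76, 29 members were above 0.8 and 8 were negative, the lowest at -0.38. Mrpl23, Mrpl24 and Mrpl48 gave the 3 negative values over all libraries. Among all other genes tested, those whose pattern was most like the mean of the members were Banf1 (r = 0.991), Ppia (r = 0.989), Psmb3 (r = 0.988), Gm10123 (r = 0.988), Pdap1 (r = 0.986), Tomm5 (r = 0.985), Prelid1 (r = 0.985) and Rps27l (r = 0.984).

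Promoters were read for the members because most of them moved together. RefSeq windows of GRCm38.p6, from 250 bases before to 50 after the start, were found for 68 of the 77 members, and 4 motifs were searched on both strands; none of these strings contains another. The ETS motif CCGGAAG, bound by factors such as GABPA, was in 24 member windows (35.3%), against 9.12% of all 27025 windows. The YY1 motif AAGATGGCG was in 8 (11.8%, against 1.49%), the palindromic NRF1 consensus in 3 (4.41%, against 0.977%) and the E-box CACGTG, bound by factors such as MYC, in 5 (7.35%, against 7.24%). Of the 24 members with the ETS motif 21 were higher at day 1, with a median log2 fold change of 0.87, and of the 44 without it 38 were, with a median of 0.76. Windows of 5 members are shown. Mrps22, the member that changed most, lies on the minus strand at chr9:98601630-98601929, with 1 ETS motif. Mrpl12, which changed almost as much, lies on the plus strand at chr11:120484387-120484686, with none of the 4 motifs. Mrpl39 lies on the minus strand at chr16:84735195-84735494, with 1 NRF1 motif. Mrpl52, the member with the largest difference between ZT16 and ZT4 in uninjured muscle, lies on the plus strand at chr14:54426659-54426958, with 2 ETS motifs. Mrpl23, called lower with all libraries but not under every alternative, lies on the plus strand at chr7:142532782-142533081, with none. The RefSeq starts of Mrpl39 and Mrpl23 differ from the outermost starts in GENCODE M21. Those are at 84735742 for Mrpl39 and 142532686 for Mrpl23, both outside the windows shown. Capitals mark the motifs, written 5′ to 3′ in the direction of the gene, so that an ETS motif on the other strand reads as its reverse complement.
Mrps22: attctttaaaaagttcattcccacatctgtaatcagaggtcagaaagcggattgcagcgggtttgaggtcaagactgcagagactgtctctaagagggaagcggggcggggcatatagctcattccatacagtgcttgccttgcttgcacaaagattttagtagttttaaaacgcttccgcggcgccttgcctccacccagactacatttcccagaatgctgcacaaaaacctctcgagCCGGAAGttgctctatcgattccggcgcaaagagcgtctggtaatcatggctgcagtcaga
Mrpl12: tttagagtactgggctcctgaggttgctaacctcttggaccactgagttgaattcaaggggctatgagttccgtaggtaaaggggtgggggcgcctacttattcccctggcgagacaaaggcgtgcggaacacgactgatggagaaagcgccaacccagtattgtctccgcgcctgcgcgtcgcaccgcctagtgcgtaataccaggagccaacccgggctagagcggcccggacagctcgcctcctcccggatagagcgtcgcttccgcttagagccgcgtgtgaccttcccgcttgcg
Mrpl39: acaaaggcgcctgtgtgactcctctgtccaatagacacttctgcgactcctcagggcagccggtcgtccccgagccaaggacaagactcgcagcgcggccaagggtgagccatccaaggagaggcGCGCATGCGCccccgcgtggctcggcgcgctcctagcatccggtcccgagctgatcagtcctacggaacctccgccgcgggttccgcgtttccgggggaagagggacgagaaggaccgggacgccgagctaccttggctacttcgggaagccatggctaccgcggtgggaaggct
Mrpl52: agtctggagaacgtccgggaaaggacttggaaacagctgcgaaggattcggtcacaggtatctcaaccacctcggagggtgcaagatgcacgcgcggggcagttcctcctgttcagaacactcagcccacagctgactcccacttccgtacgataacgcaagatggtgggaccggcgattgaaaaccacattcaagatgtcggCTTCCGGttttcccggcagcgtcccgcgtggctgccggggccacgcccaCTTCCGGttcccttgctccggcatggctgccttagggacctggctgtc
Mrpl23: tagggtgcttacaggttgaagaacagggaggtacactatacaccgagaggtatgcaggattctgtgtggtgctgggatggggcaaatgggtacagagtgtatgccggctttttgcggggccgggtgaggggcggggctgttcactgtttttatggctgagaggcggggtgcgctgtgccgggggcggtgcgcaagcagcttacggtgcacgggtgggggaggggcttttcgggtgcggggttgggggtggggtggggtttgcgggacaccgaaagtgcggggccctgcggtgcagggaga
A match describes the letters in the window and is not evidence of binding. Mrpl39 with its NRF1 motif had a log2 fold change of 1.03 ± 0.09 at day 1 (SE; edgeR adjusted p = 3.12e-10), and Mrpl12, with none of the motifs, one of 1.99.

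Members that start back to back with another gene did not always move with it. Mrpl46 and Mrps11 are divergent neighbours on chromosome 7, at 78775236 to 78783531 on the minus strand for Mrpl46, and both were higher at day 1, at 1.52 ± 0.12 and 0.51 ± 0.12 (SE; edgeR adjusted p = 5.21e-11 and 0.000406). Mrpl36 and its neighbour Ndufs6, a respiratory chain subunit whose start lies 29 bases away, were at 0.67 and 0.56. Mrps7 rose by 1.15 while its neighbour Gga3 was at -1.25 (edgeR adjusted p = 5.65e-11), and Mrpl27 was at 0.05 while its neighbour Eme1 was at 2.73 (edgeR adjusted p = 2.53e-14). In all, 28 members share exon bases with a gene on the opposite strand and 7 with a gene on the same strand, and reads from the shared bases cannot be assigned with certainty; on opposite strands this is because the kit does not mark strand.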

How the data were processed

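RNA-seq was made from 22 libraries of sorted muscle stem cells with a SMART-seq kit that does not mark strand. Per the submitters' processing notes, the tools were Trimmomatic 0.33, STAR 2.5.2, RSEM 1.3.3 and DESeq2 on mm10; the annotation release is not given in the sources used here. Per the file headers, the deposited files hold RSEM expected counts and TPM per transcript, made by the authors. These estimated counts were summed per gene and rounded to whole numbers, and the deposited TPM were summed per gene. Genes were named from GENCODE M21, which matched 42546 of 43430 identifiers.

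Genes were filtered with a minimum count of 10 and a minimum total of 15 (15084 kept, 28346 left out). All 6 groups were fitted together with edgeR 4.0.16 in R 4.3.3 (trimmed mean of M-values scaling, quasi-likelihood test, Benjamini-Hochberg adjustment over all genes tested, threshold 0.05). State comparisons averaged ZT16 and ZT4, and the time effect is the ZT16 to ZT4 contrast of an injured state minus that of uninjured muscle. The fitting code was tested on simulated data. Alternatives used limma 3.58.1, DESeq2 1.42.0, other scaling, filters and length offsets, and fits without single libraries. Near-identical copies were found with blastn 2.17.0 (at least 95% identity over 100 bases).

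The members, gene lists and rules were chosen with earlier results of these data known. Members named are the 6 highest and 6 lowest log2 fold changes between states, those called against the majority, the 5 smallest p between times of day, the 6 highest and 4 lowest TPM, and a fixed list with known roles; the 8 most similar other genes were named by Pearson correlation. Members named beyond this, such as Mrpl36 and Mrps7, were chosen after their values were seen. Leaving out uninjured ZT16 replicates 1 and 3 together was an alternative chosen because they stood apart in earlier results of these data. Library totals of 5965957 to 9751536 counts limit precision by counting error, which the model includes apart from its dispersion, the spread beyond counting error. Same-numbered libraries did not deviate together (correlations between -0.093 and 0.102), so the numbers were not used as pairs.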

Additional observations from a re-analysis of the deposited data

Results flagged for a closer look

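In groups of 4 libraries, 56 sets of member values were examined for 1 library far from the other 3, and 2 were found, where chance gives about 1 in 20. Mrpl3 was at 142.1 CPM and Mrps12 at 89.06 CPM in day 1 ZT4 replicate 1, the first above and the second below the other 3 libraries of that group. The ZT16 to ZT4 contrast differed from that of uninjured muscle, by a test of the difference itself, for 12 members at day 1 and 29 members at day 3 (edgeR adjusted p under 0.05). Without uninjured ZT16 replicates 1 and 3 the counts were 0 and 5.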

How the results depend on the processing

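Of 84 single values recomputed under 1892 alternatives, 1789 kept their direction and side of the threshold, 57 were no longer past it, 32 came past it and 14 turned their sign. Shares of all genes called are given above for the main edgeR fit only, so counts of members under the alternatives have none beside them. At day 1 against uninjured, 2 members were called lower; this was 0 with ZT16 groups alone, no filter, effective length offsets or groups compared alone, and 1 with DESeq2, with its size factors in edgeR, or without uninjured ZT16 replicates 1 and 3. At day 3 it was 4 with ZT4 groups alone, 0 with ZT16 groups alone, no filter or length offsets, and 1 without that pair. At day 3 against day 1, 24 were called higher and 7 lower with ZT4 groups alone, and 35 higher and 1 lower with ZT16 groups alone. In uninjured muscle, 5 members were called lower at ZT16 with groups compared alone, 5 without the pair and 18 with limma voom. The time effect at day 1 was called for 7 members with no filter, 4 with groups alone, 4 with limma voom and 0 without the pair, and that at day 3 for 5 without the pair, which leaves 1 uninjured ZT16 library, assumed to vary like the other groups. The summed TPM ratio was 1.526 at day 1 without the pair, and at day 3 1.676 without the pair, 1.716 rescaled without mitochondrial DNA and rRNA genes, and 1.969 as scaled CPM.

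Leaving out 1 library at a time gave 66 to 73 members higher and 0 to 2 lower at day 1, 72 to 74 and 0 to 2 at day 3, 31 to 43 and 6 to 9 between day 3 and day 1, and 0 to 1 higher and 17 to 44 lower at ZT16 in uninjured muscle, where 17 and 44 came without ZT16 replicates 1 and 2. The time effect ran from 4 to 28 members at day 1 and from 19 to 40 at day 3; 4 came without uninjured ZT16 replicate 1 or day 1 ZT16 replicate 4, 19 without uninjured ZT16 replicate 1, and 28 and 40 without uninjured ZT16 replicate 2. No member was called between ZT16 and ZT4 at day 1 or day 3 (0 in each fit). The TPM ratios ran from 1.576 to 1.713 at day 1 and from 1.731 to 1.881 at day 3.

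Signs turned as follows, on the log2 scale. Against uninjured at day 1, Mrpl14 was at -0.05749 and Mrpl27 at -0.22 with ZT4 groups alone, Mrpl27 between -0.00804 and 0.261 without 1 library (uninjured ZT4 replicate 2 and ZT16 replicate 2), Mrpl23 at 0.0667 with ZT16 groups alone and Mrpl48 at 0.15 with length offsets. Mrps21 was at 0.11 with ZT16 groups alone, 0.019 with no filter, 0.24 with length offsets, and between -0.1327 and 0.1151 without 1 library, with 0.0233 without uninjured ZT4 replicate 1 and the highest without uninjured ZT16 replicate 2. At day 3, Mrpl23 was at 0.22 with ZT16 groups alone, Mrpl48 at 0.22 with length offsets, and Mrpl52 and Mrps28 at -0.47 and -0.31 with ZT4 groups alone, where both were called lower. The cause was not tested. The numbers shared by libraries do not pair them; with a replicate block 67 members were higher and 2 lower at day 1, 72 and 2 at day 3, 40 and 7 between day 3 and day 1, 34 were lower at ZT16 in uninjured muscle, and the time effects were called for 11 and 31.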
